A study of Mus musculus with 12 samples.

Results

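The GABA-B receptor subunit genes Gabbr1 and Gabbr2 and the auxiliary subunit genes Kctd8, Kctd12 and Kctd16 were followed in the hippocampi of 12 male mice. The genes were chosen by name and matched by Ensembl identifier, and all 5 were listed in every mouse, among 24590 genes listed in any. The mice belonged to 2 lines with germline changes in Shank2, which encodes a scaffold of the postsynaptic density of excitatory synapses. Exons 6 and 7 are deleted in one, called the exon 6-7 line, and exon 7 alone in the other, called the exon 7 line. From each came 3 knockout mice (labelled Shank2 KO) and 3 wild-type littermates, on a background given as mixed C57BL/6J and C57BLl/6N. All 4 groups share that background and were untreated as far as the labels say. The labels give an age of 8 to 15 weeks for the mice of the behavioural experiments and none of their own for the mice used for RNA. Names such as WT778 join genotype and animal number, and replicates are separate animals. The comparisons asked whether either deletion changed the expression of these genes, whether the deletions differed in that, and how the wild types of the 2 lines compared.

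GABA-B receptors are the metabotropic receptors for the inhibitory transmitter GABA. They form from the Gabbr1 product, which binds GABA, and the Gabbr2 product, which brings the complex to the cell surface and couples it to Gi/o proteins. The Kctd8, Kctd12 and Kctd16 proteins attach to the intracellular tail of the Gabbr2 subunit and hold the G protein beta and gamma subunits near it. Receptors with Kctd12 desensitize rapidly, whereas those with Kctd8 or Kctd16 give more sustained responses. In the hippocampus the activated receptor opens GIRK potassium channels, closes presynaptic voltage-gated calcium channels and lowers adenylyl cyclase activity.

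Levels are FPKM per gene, fragments per kilobase of transcript relative to all mapped fragments of the library. They were divided here by 1 scaling factor per library (scaled FPKM). FPKM is a measure per length, so that the levels of different genes can be set side by side. It keeps no read total, so that the depth behind a value is unknown and no counting error is attached. Between 19515 and 20334 genes were listed per library, and scaling factors ran from 0.919 to 1.07. Shank2 itself was at 13.8 to 14.9 scaled FPKM in the wild-type and 6.15 to 7.02 in the knockout mice of the exon 6-7 line. The exon 7 line had 36.0 to 44.1 and 33.2 to 44.6, so that its total cannot check those labels. The libraries of WT778, KO776, WT628 and KO969, 1 of each group and here named set A, differed from the remaining 8. In set A a single gene of unknown symbol, ENSMUSG00000095746, was not listed, and in the others it was at 218 to 435 FPKM. Hippocampal markers were present in every library. The summed level of 5 dentate granule cell genes, Prox1 among them, ran from 78.1 to 112 scaled FPKM, and that of 8 pyramidal cell genes, Wfs1 among them, from 203 to 294. In whole tissue, fewer cells of a type and less RNA per cell cannot be told apart.

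Gabbr1 was the most abundant member in every mouse. Gabbr1 (ENSMUSG00000024462, chromosome 17, 37045966 to 37075067, plus strand, build mm10) stood at 254, 220 and 239 scaled FPKM in WT778, WT809 and WT865, and 236, 230 and 231 in KO776, KO777 and KO864. The exon 7 mice had 255, 239 and 244 in WT628, WT993 and WT999 and 241, 234 and 235 in KO969, KO990 and KO994. The genotypes overlapped within each line, and so did the wild types of the 2 lines. The gene gives rise to a long and a short receptor isoform from different start sites, which a value per gene does not separate.

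Gabbr2 was the second most abundant member, and its level separated the lines. Gabbr2 (ENSMUSG00000039809, chromosome 4, 46662305 to 46991873, minus strand) was at 26.7, 28.2 and 36.2 scaled FPKM in WT778, WT809 and WT865, and 34.2, 31.1 and 33.5 in KO776, KO777 and KO864. Its values were 74.1, 83.99 and 89.5 in WT628, WT993 and WT999 and 71.2, 82.4 and 84.03 in KO969, KO990 and KO994. All 6 mice of the exon 7 line lay above all 6 of the exon 6-7 line, while the genotypes overlapped within each line. Kctd8, Kctd12 and Kctd16 separated the lines in the same way. The share of all genes that did so was not computed. Differences between the lines were common, with 67.1% of all genes passing the limma test between the wild types described below. The 2 exon 7 mice of set A, WT628 and KO969, were the lowest of that line.

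Among the auxiliary subunits Kctd12, the subunit of desensitizing receptors, had the highest level in every mouse. Kctd12 (ENSMUSG00000098557, chromosome 14, 102976581 to 102982637, minus strand) has a single exon in its longest transcript. It was at 20.6, 13.6 and 16.7 scaled FPKM in WT778, WT809 and WT865, and 21.7, 18.0 and 18.2 in KO776, KO777 and KO864. Among the exon 7 mice WT628, WT993 and WT999 had 50.3, 24.2 and 30.3, against 52.0, 29.3 and 28.3 in KO969, KO990 and KO994. The set A mouse was the highest of its group in all 4 groups, and the genotypes overlapped in both lines.

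Kctd16 was the lowest member in the exon 6-7 line and stood above Kctd8 in the exon 7 line. Kctd16 (ENSMUSG00000051401, chromosome 18, 40256962 to 40531630, plus strand) was at 0.980, 1.04 and 1.37 scaled FPKM in WT778, WT809 and WT865, and 1.01, 0.958 and 1.07 in KO776, KO777 and KO864. The level was 10.6, 10.8 and 11.4 in WT628, WT993 and WT999 and 8.79, 9.55 and 9.28 in KO969, KO990 and KO994. Knockout and wild-type mice overlapped in the exon 6-7 line, and each exon 7 knockout had less than any exon 7 wild type. Its mean of 1.13 FPKM as deposited in the exon 6-7 line, against 9.55 in the exon 7 line, is above the minimum of 1 FPKM used for testing, so that each line alone would have kept the gene.

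Kctd8 (ENSMUSG00000037653, chromosome 5, 69109285 to 69341679, minus strand) was low throughout. It was at 2.96, 2.55 and 2.80 scaled FPKM in WT778, WT809 and WT865, and 3.20, 2.72 and 2.84 in KO776, KO777 and KO864. Mice WT628, WT993 and WT999 had 4.27, 4.37 and 3.49, against 3.67, 3.57 and 4.30 in KO969, KO990 and KO994. The genotypes overlapped in both lines. From high to low, the order of levels was thus Gabbr1, Gabbr2, Kctd12, Kctd8 and Kctd16 in the exon 6-7 line and Gabbr1, Gabbr2, Kctd12, Kctd16 and Kctd8 in the exon 7 line. Within each of the 4 groups no mouse's value of one gene reached the range of its neighbour in that order. FPKM depends on the transcript length assumed for each gene, and Kctd16 has 10 annotated transcripts and Kctd8 has 2, so the order of these low genes rests on that choice. Kctd8, Kctd12 and Kctd16 share no stretch of 50 bases between their annotated transcripts, and no 50-base window of Kctd12 occurs in its paralogue Kctd12b. Annotated antisense genes overlap Kctd16, and a noncoding RNA gene on the opposite strand overlaps Kctd12. Reads of either strand cannot be told apart where counting does not use strand, and the sources do not say whether it did.

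**Figure D1:**
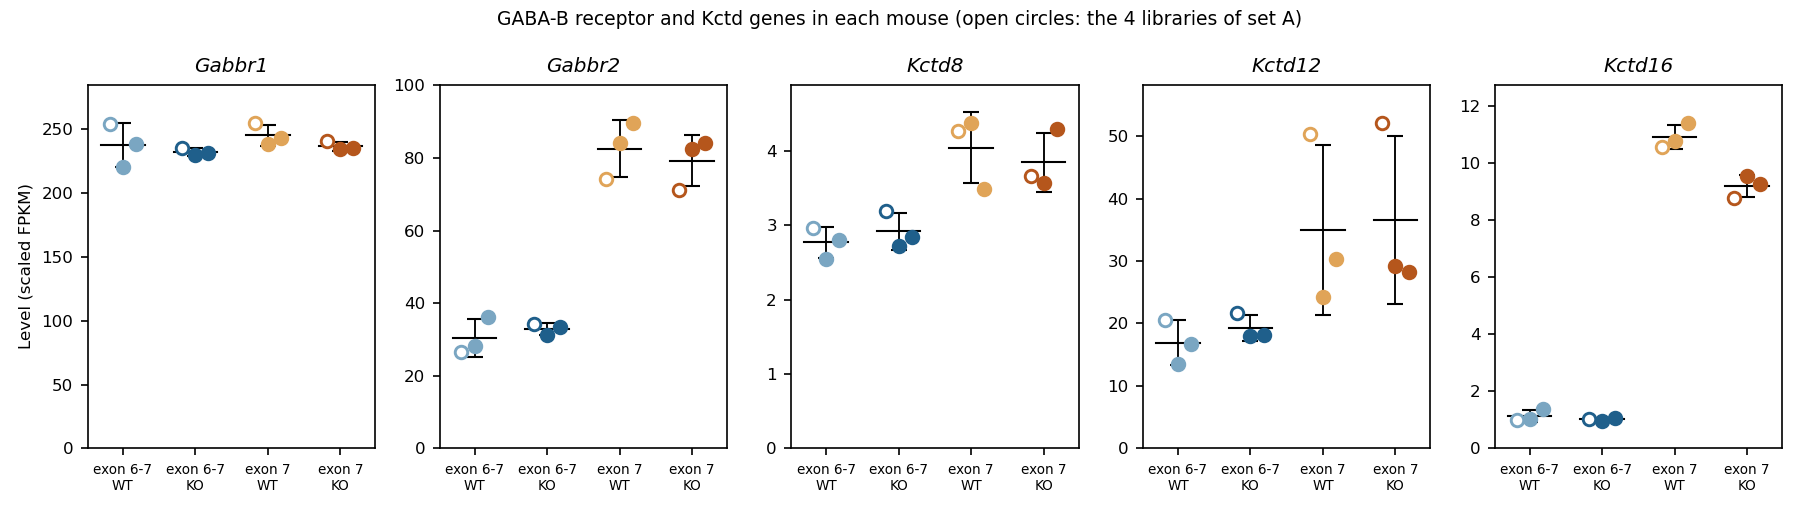
Level of each gene (scaled FPKM, linear axes from 0) in each of the 12 mice by group. Circles are mice (open for set A), horizontal lines group means and bars 1 SD (n = 3); Gabbr2, Kctd8, Kctd12 and Kctd16 lie higher in the exon 7 line, Gabbr1 overlaps between the lines, and Kctd12 is highest in the open circles of each group.

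In the exon 6-7 line no member passed the test between knockout and wild-type mice. Group means for Gabbr1 were 238 ± 17.0 scaled FPKM in wild types and 233 ± 2.91 in knockouts (SD, n = 3 each), which is −0.03 on the log2 scale (95% interval −0.19 to 0.13). Gabbr2 was at 30.4 ± 5.14 and 32.9 ± 1.59 (log2 fold change 0.13, interval −0.14 to 0.39). Kctd12 was at 17.0 ± 3.53 and 19.3 ± 2.09 (0.19, interval −0.40 to 0.78), the widest interval of the 5. Kctd8 was at 2.77 ± 0.208 and 2.92 ± 0.247 (0.06, interval −0.19 to 0.30). Kctd16 was at 1.13 ± 0.211 and 1.01 ± 0.0541 (−0.08, interval −0.30 to 0.14). With limma, 0 of the 5 passed an adjusted p under 0.05 over all 14218 genes tested, where 2 genes (0.0141%) passed. An unadjusted p under 0.05 was found for 0 members and for 583 of all genes. All 5 members overlapped between genotypes, while 5.01% of all genes had every knockout above and 6.31% every knockout below the wild types. The median of the members was 0.06 and that of all genes −0.00. Only Gabbr1 and Kctd16 lay below 0, and the direction of Gabbr1 turned with quantile normalization (0.07), with TPM scaling (0.03), among the 8 libraries outside set A (0.01) and without WT778 (0.02). The value of Gabbr2 was 0.26 without WT865 and 0.01 among the libraries outside set A.

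Summed markers of oligodendrocytes, interneurons and pyramidal cells did not overlap between genotypes in this line, and those of the choroid plexus overlapped. The summed level of 5 choroid plexus genes was 42.0, 3971 and 8605 scaled FPKM in the wild types, lowest in WT865, and 6715 to 8398 in the knockouts. The summed level of 6 oligodendrocyte genes was 5070 to 6382 in wild types and 4463 to 4612 in knockouts, and that of 8 interneuron genes 1941 to 1961 and 1741 to 1821. The 8 pyramidal cell genes summed to 273 to 294 in wild types and 260 to 269 in knockouts. A sum follows its most abundant genes, such as Ttr in the choroid plexus and Cck in the interneuron list. Taken singly, 5 of 6 oligodendrocyte, 2 of 8 interneuron and 2 of 8 pyramidal cell genes had every knockout below the wild types. Among the choroid plexus genes Kl and Otx2, 2 of 5, had every knockout above. The shares of all genes were 6.31% below and 5.01% above. Of the genes in these lists none passed the test over all genes. Their part in the levels of the 5 members was not tested.

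In the exon 7 line the lowest p belonged to Kctd16, which did not pass over all genes. Kctd16 was at 10.9 ± 0.428 scaled FPKM in wild types and 9.21 ± 0.389 in knockouts (SD, n = 3 each), a ratio of means of 0.843. Its log2 fold change was −0.22 (SE 0.0992, interval −0.44 to −0.01, limma unadjusted p = 0.0439, adjusted p = 1; exact permutation p = 0.1, the smallest that 3 against 3 mice allow). It was the 1 member whose groups did not overlap, and 3.77% of all genes had every knockout below the wild types and 3.27% every knockout above. Larger changes in either direction were seen in 11.9% of all genes. The difference was −0.24 between the set A mice and −0.21 among the others. Its sign held in all 25 alternatives (−0.25 to −0.16), with an unadjusted p of 0.0089 to 0.147 and an adjusted p of 0.431 to 1.

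The other members of the exon 7 line differed by less. Gabbr1 was at 246 ± 8.26 in wild types and 237 ± 3.55 in knockouts (log2 fold change −0.05, interval −0.21 to 0.11). Gabbr2 was at 82.5 ± 7.78 and 79.2 ± 6.98 (−0.06, interval −0.32 to 0.20). Kctd8 was at 4.04 ± 0.481 and 3.84 ± 0.397 (−0.06, interval −0.30 to 0.19). Kctd12 was at 34.9 ± 13.7 and 36.5 ± 13.4 (0.07, interval −0.52 to 0.66), and its direction turned without WT993 (−0.15) and without KO969 (−0.21). That of Gabbr2 turned without WT999 (0.00) and without KO969 (0.02). With limma, 0 of the 5 members and 0% of all genes passed an adjusted p under 0.05, while 1 member and 492 genes had an unadjusted p under 0.05. Here the summed oligodendrocyte level was 4867 to 5126 in wild types and 4470 to 4788 in knockouts, and the dentate granule cell level 91.9 to 108 and 107 to 112. Their part in the value of Kctd16 was not tested.

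The effects of the 2 deletions on the members were not detectably different. The difference of the effects, exon 6-7 minus exon 7, was 0.02 for Gabbr1 (interval −0.20 to 0.25), 0.18 for Gabbr2 (−0.19 to 0.55), 0.11 for Kctd8 (−0.23 to 0.46), 0.12 for Kctd12 (−0.71 to 0.95) and 0.14 for Kctd16 (−0.16 to 0.45). With limma 0 of the 5 passed, as 0.00703% of all genes did. An unadjusted p under 0.05 was found for 0 members and for 3.88% of all genes. These intervals do not show that the deletions act alike. The mean effect over both lines was −0.15 for Kctd16 (interval −0.31 to 0.00, limma unadjusted p = 0.0518, adjusted p = 1; two-sided exact permutation p = 0.025 before any adjustment) and between −0.04 and 0.13 for the others. None of the 5 passed here, where 0.0141% of all genes did. Of the members 0 had a limma unadjusted p under 0.05, against 3.62% of all genes.

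**Figure D2:**
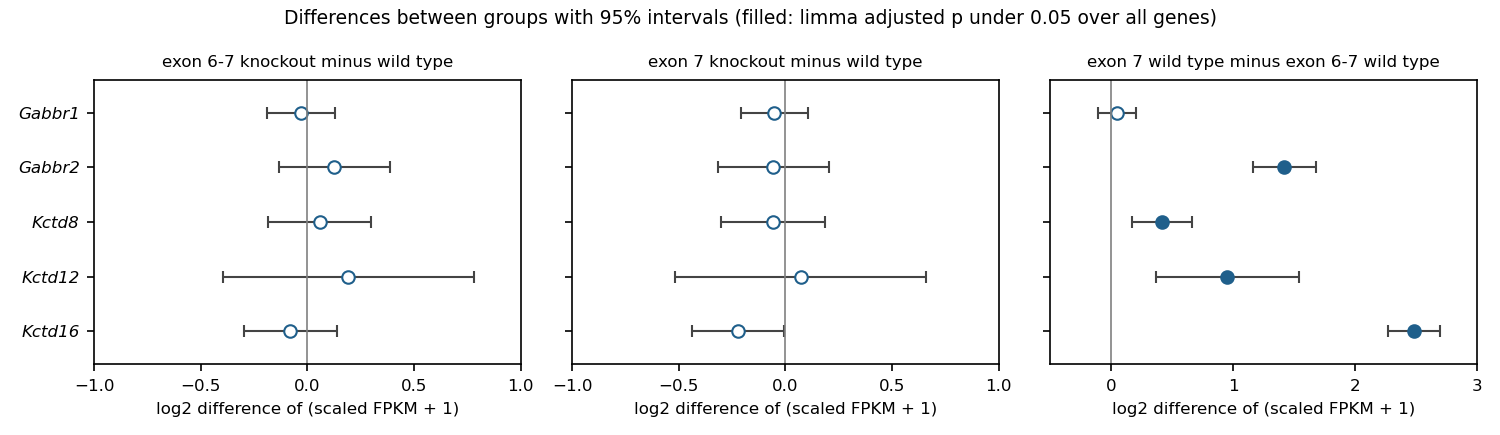
Log2 differences of (scaled FPKM + 1) for the 5 genes with 95% intervals, in the knockout comparison of each line and between the wild types. Filled circles passed limma adjusted p under 0.05 over all genes; none is filled in the knockout panels, and 4 are filled between the wild types.

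The wild types of the 2 lines differed in 4 of the 5 members. Kctd16 was at 10.9 scaled FPKM in the exon 7 and 1.13 in the exon 6-7 wild type, a ratio of 9.64 and a log2 difference of 2.49 (SE 0.0992, limma adjusted p = 1.68e-08). On the scale with 1 FPKM added this difference understates that ratio. Only 0.802% of all genes differed by more, in either direction. Gabbr2 was 2.72 times as high in the exon 7 wild type (log2 difference 1.42, SE 0.119, limma adjusted p = 8.24e-07). Kctd12 was 2.06 times as high (0.95, SE 0.270, limma adjusted p = 0.00773) and Kctd8 1.46 times as high (0.42, SE 0.112, limma adjusted p = 0.00561). In these 4 genes all 3 exon 7 wild-type mice lay above all 3 exon 6-7 wild-type mice. The share of all genes separated in this way was not computed, and 67.1% of all genes passed the test. Gabbr1 differed by 0.05 (interval −0.11 to 0.21, limma adjusted p = 0.571).

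The background of this comparison was broad. Between the wild types 67.1% of all genes passed the test, 4826 higher and 4715 lower in the exon 7 line, against 4 of 5 members. A share of 80% of 5 genes is near that background. Each line had its own wild types, and the mitochondrial share of all FPKM was 6.22 to 7.39% for the exon 6-7 and 10.3 to 14.3% for the exon 7 mice. Genotype background, litter, age, dissection and sequencing of the lines cannot be told apart here. Cell type markers also differed. Of 8 interneuron markers 6 were lower and 2 higher in the exon 7 wild type (summed 945 to 1189 against 1941 to 1961 scaled FPKM). Of 5 dentate granule cell markers 3 were higher and 1 lower (91.9 to 108 against 78.1 to 98.0), and of 8 microglial markers 5 were lower and 1 higher (134 to 150 against 193 to 219). The summed level of 7 habenular and thalamic markers was 32.9 to 35.1 in the exon 7 and 24.1 to 28.6 in the exon 6-7 wild types, without overlap. Of its 4 tested genes Tcf7l2 (0.95), Rora (1.26) and Prkcd (0.46) were higher and Tac2 (−0.89) lower in the exon 7 wild type. The habenular genes Chrnb4, Chrna3 and Gpr151, with means of 0.112, 0.271 and 0.660 FPKM over all libraries, were not tested. The part of these markers in the differences of the members was not tested.

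The size of these line differences depended on how values were scaled, and for Gabbr1, Kctd8 and Kctd12 so did the call. With the trends of transcript length and GC content removed from each library, Gabbr1 was lower in the exon 7 wild type (−0.39, adjusted p = 0.00107) and Kctd12 no longer differed detectably (0.07, adjusted p = 0.808). Under the same correction Gabbr2 was at 0.98, Kctd8 at 0.53 and Kctd16 at 2.56, each past the threshold, and 47.6% of all genes passed. Gabbr1 was at −0.11 in FPKM as deposited (adjusted p = 0.196), where the median of all genes was −0.135. It passed upward with TPM scaling (0.20, adjusted p = 0.0463), where that median was 0.128, and with quantile normalization (0.65, adjusted p = 6.03e-05). Kctd8 did not pass with quantile normalization (0.24, adjusted p = 0.0731). Between the 2 set A wild types the differences were 0.00 for Gabbr1, 1.44 for Gabbr2, 0.41 for Kctd8, 1.25 for Kctd12 and 2.55 for Kctd16, and among the others 0.07, 1.41, 0.42, 0.81 and 2.46.

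Sequence upstream of the start site is shown for the members that have an entry in the RefSeq promoter table (GRCm38.p6). Of these genes Gabbr2, Kctd8 and Kctd12 passed as higher in the exon 7 wild type on scaled FPKM, as 33.9% of all genes did, and Gabbr1 did not pass. With length and GC trends removed, Kctd12 did not pass and Gabbr1 passed as lower. The windows are chr17:37045716-37045965 on the plus strand for Gabbr1 and, on the minus strand, chr4:46991874-46991964 for Gabbr2, chr5:69341710-69341959 for Kctd8 and chr14:102982638-102982887 for Kctd12. They end at the base before the annotated start. For Kctd8 this is the RefSeq start, which lies upstream of the GENCODE start at 69341679. For Gabbr2 it is the more upstream of the RefSeq and GENCODE starts, which leaves 91 bases. Capitals mark matches on either strand to the cAMP response element TGACGTCA, the GC box GGGCGG and the TATA box TATAAA. The GC box appears as CCGCCC where it lies on the other strand, and no matches overlap.
Gabbr1: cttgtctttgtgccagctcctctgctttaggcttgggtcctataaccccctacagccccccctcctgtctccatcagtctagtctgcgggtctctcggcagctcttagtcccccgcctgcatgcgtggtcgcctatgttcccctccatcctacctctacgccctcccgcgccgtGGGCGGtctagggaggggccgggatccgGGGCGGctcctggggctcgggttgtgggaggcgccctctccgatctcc
Gabbr2: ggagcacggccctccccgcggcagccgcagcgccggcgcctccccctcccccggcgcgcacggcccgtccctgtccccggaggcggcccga
Kctd8: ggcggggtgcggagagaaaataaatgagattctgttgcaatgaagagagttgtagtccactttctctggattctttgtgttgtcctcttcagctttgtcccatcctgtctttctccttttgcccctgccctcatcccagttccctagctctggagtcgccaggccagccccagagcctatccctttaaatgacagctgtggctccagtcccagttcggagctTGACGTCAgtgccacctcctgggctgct
Kctd12: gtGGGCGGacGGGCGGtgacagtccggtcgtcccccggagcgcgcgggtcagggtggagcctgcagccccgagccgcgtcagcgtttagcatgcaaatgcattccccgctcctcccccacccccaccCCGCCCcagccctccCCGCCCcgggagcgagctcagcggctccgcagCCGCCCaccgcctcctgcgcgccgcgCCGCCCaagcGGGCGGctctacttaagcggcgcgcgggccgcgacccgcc
The window of Kctd12 holds 7 GC boxes and has 77.6% G and C and that of Gabbr1 holds 2, with 66.0%. A GC box occurs in 32.7% of all 32851 windows of 250 bases, whose median G and C content is 52.4%. The window of Kctd8 (53.6% G and C) has no GC box and 1 cAMP response element, 28 bases upstream of the RefSeq start counted to the first base of the match, a motif present in 1.5% of all windows. The 91 bases of Gabbr2 are 85.7% G and C and hold no match, where a GC box occurs in 9.4% of windows of that length and position. No TATA box was found in the 4 windows, and 12.4% of all windows of 250 bases have one. These matches describe letters and show no binding.

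Ratios between the transcript levels of the members within a library were compared next; they do not measure the makeup of the protein complex. The ratio of Gabbr2 to Gabbr1 FPKM was 0.105, 0.128 and 0.152 in WT778, WT809 and WT865 and 0.145, 0.135 and 0.145 in KO776, KO777 and KO864. It was 0.291, 0.352 and 0.368 in WT628, WT993 and WT999 and 0.296, 0.352 and 0.357 in KO969, KO990 and KO994. The 2 lines did not overlap, and within the exon 7 line the set A mice were the lowest of each genotype. A ratio within a library does not depend on the scaling factor, but trends of transcript length and GC content can still enter it. Such a ratio shows unequal change without saying which gene moved.

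Kctd12 made up most of the summed FPKM of Kctd8, Kctd12 and Kctd16 in every mouse. Its share was 81.0 ± 2.60% in wild types and 83.0 ± 0.726% in knockouts of the exon 6-7 line (SD, n = 3 per group), and 68.6 ± 7.97% and 72.4 ± 7.20% in the exon 7 line. Kctd16 held 5.56 ± 1.38% and 4.38 ± 0.463% in exon 6-7 mice, against 22.9 ± 5.92% and 19.5 ± 5.05% in exon 7 mice. The Kctd16 share was 3.90 to 6.59% over the exon 6-7 mice and 13.6 to 27.4% over the exon 7 mice, without overlap. Kctd8 held 12.0 to 14.8% and 5.69 to 11.1%. The sum of the 3 Kctd genes was 0.0690 to 0.0960 of the sum of the 2 receptor genes in exon 6-7 mice and 0.122 to 0.207 in exon 7 mice. Kctd12 dominates this sum, and its wild-type line difference fell from 0.95 to 0.07 with length and GC trends removed. The shares and this ratio were not compared between the lines under that correction. For the 2 ratios and the Kctd12 and Kctd16 shares, 8 comparisons of genotype gave exact permutation p of 0.3 to 0.9 (Benjamini-Hochberg adjusted 0.667 to 0.9), where 3 against 3 mice cannot go below 0.1.

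**Figure D3:**
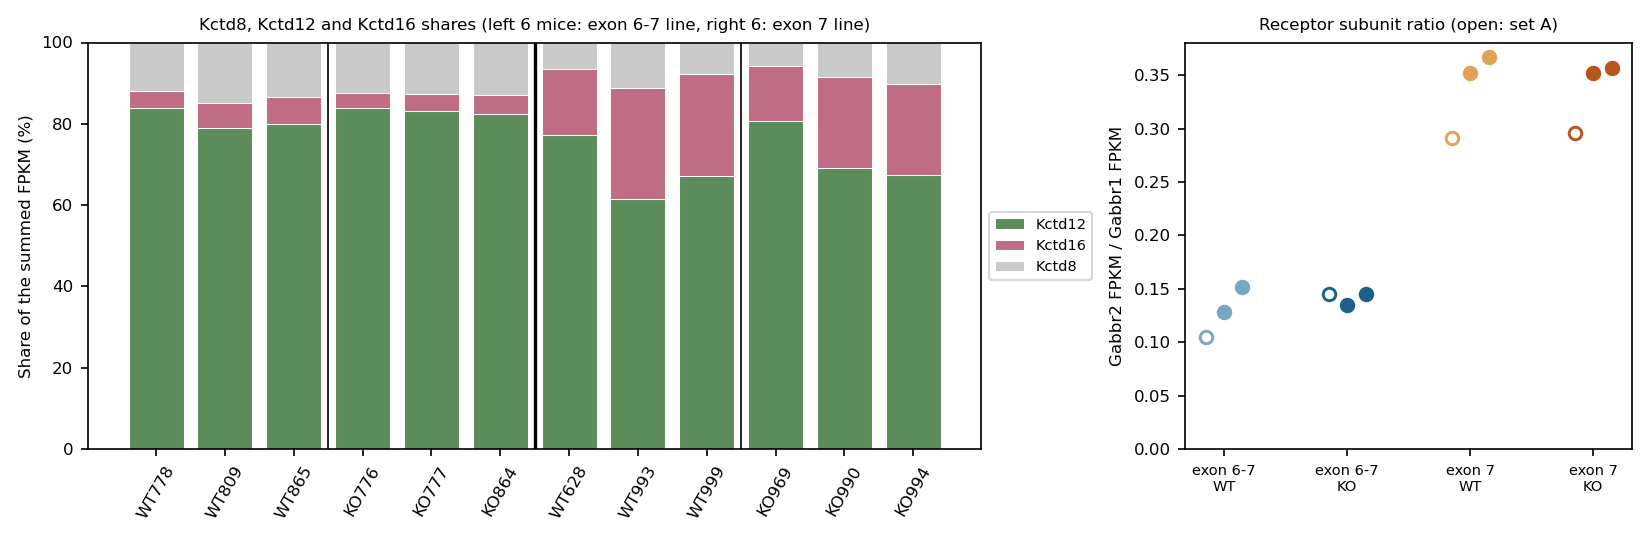
Left, share of Kctd12, Kctd16 and Kctd8 in their summed FPKM (%) for each mouse; right, ratio of Gabbr2 to Gabbr1 FPKM for each mouse by group, with open circles for set A. The Kctd16 share is 3.90 to 6.59% in the 6 mice on the left and 13.6 to 27.4% in the 6 on the right, and the receptor ratio is higher in the exon 7 line.

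Kctd12 varied within the lines with the library set more than with genotype. The exon 7 set A mice WT628 and KO969 were at 50.3 and 52.0 scaled FPKM and the other 4 mice at 24.2 to 30.3. The exon 6-7 set A mice WT778 and KO776 were at 20.6 and 21.7 and the others at 13.6 to 18.2. With the library set as a term in the fit, the log2 difference was 0.85 in the exon 7 line (SE 0.101, limma adjusted p = 0.000262), where 31.5% of all genes passed, and 1.29% of genes had a larger difference. In the exon 6-7 line it was 0.34 (SE 0.101, limma adjusted p = 0.0741), where 6.82% of genes passed. Gabbr2 lay the other way in the exon 7 line (−0.22, limma adjusted p = 0.120), and the set terms of Gabbr1, Kctd8 and Kctd16 lay between −0.08 and 0.13 in both lines, none passing. Kctd12b, a paralogue of Kctd12, was at 3 and 3.20 scaled FPKM in WT628 and KO969 and at 1.53 to 1.96 in the other exon 7 mice. In the exon 6-7 line Kctd12b overlapped, at 1.03 and 1.23 in set A and 0.783 to 1.13 in the others. The mitochondrial share was 13.6 and 14.3% in the set A mice of the exon 7 line and 10.3 to 10.9% in its others. For the exon 6-7 line it was 6.72 and 7.39% in set A and 6.22 to 6.81% in the others. Microglia, which also express Kctd12, had a summed marker level of 139 to 145 in set A and 134 to 150 in the others of the exon 7 line. Aif1, Cx3cr1 and P2ry12 were among the markers. The labels name no batch, and the part of library preparation in this difference was not tested.

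The genes of the pathway showed the same division between genotype and line. Of 42 genes in 6 lists, namely receptor partners and relatives, G protein subunits, GIRK channels, RGS proteins with their binding partners, calcium channels and adenylyl cyclases, 40 were tested. The GIRK channel gene Kcnj5, with a mean of 0.149 FPKM, was below the minimum for testing. Between genotypes 0 of 40 passed in either line (limma, lowest adjusted p = 1). In the exon 6-7 line 4 of the 40 had an unadjusted p under 0.05, against 4.1% of all genes. Groups did not overlap for 9 of the 40, 2 with the knockouts above and 7 below, against 5.01% and 6.31% of all genes. For the exon 7 line 2 of the 40 had an unadjusted p under 0.05, against 3.46% of all genes. Groups did not overlap for 4, all with the knockouts below, against 3.77% of all genes below and 3.27% above. The median of the 40 was −0.01 in both lines.

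Between the wild types 19 of the 40 were higher and 9 lower in the exon 7 line, 70.0% against 67.1% of all genes. The voltage-gated calcium channel genes Cacna1a, Cacna1b and Cacna1e were all higher (1.17, 1.27 and 3.43), with Cacna1e, the R-type channel, at 49.4 ± 0.603 against 3.70 ± 0.438 scaled FPKM. Among the GIRK channel genes Kcnj6 differed most, at 20.9 ± 2.58 against 3.22 ± 0.815 (2.39), Kcnj3 was higher by 0.30 and Kcnj9 lower by 0.35. Of 7 RGS genes and partners 5 were called higher and Rgs14 lower, and Gpr158, the receptor that anchors Rgs7, was at 29.5 ± 0.977 against 9.08 ± 1.001 (1.6). Of 6 adenylyl cyclase genes 4 were higher, led by Adcy9 (2.53) and Adcy1 (1.55). The 14 G protein genes were divided, with Gnao1 (1.05) and Gng2 (0.96) higher and Gng13 (−1.80), Gnb2 (−1.50), Gng3 (−0.82), Gnai2 (−0.69) and Gnb5 (−0.50) lower. Of 7 receptor partners and relatives, 3 were higher and 2 lower, with the scaffold gene Mpdz at 1.48.

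By list, the smallest p of the knockout comparisons belonged to the following genes, none of which passed. In the exon 6-7 line Gng13, a G protein gamma subunit gene, was at 121 ± 3.63 in wild types and 95.03 ± 6.52 scaled FPKM in knockouts (log2 fold change −0.35, limma unadjusted p = 0.00353). Gnb4 and Gnb2 were at −0.25 and −0.30. Adcy9 was at 2.84 ± 0.529 and 3.96 ± 0.162 (0.38, limma unadjusted p = 0.00367), with Adcy8 at −0.23 and Adcy3 at 0.07. Cacna1e was at 0.34, Cacna1a at 0.09 and Cacna1b at −0.07. Kcnj9, Kcnj3 and Kcnj6 were at −0.15, −0.12 and 0.13, Rgs4, Rgs8 and Rgs14 at −0.23, 0.14 and −0.17, and Mpdz, Ajap1 and Clptm1 at 0.15, −0.13 and −0.07. Of the exon 7 line, Mpdz was at 40.8 ± 3.31 and 33.2 ± 0.960 (−0.28, limma unadjusted p = 0.0187), each knockout below every wild type. Gng4 was at −0.42 (limma unadjusted p = 0.0244), Gng3 at 0.09 and Gnai2 at 0.07. Rgs8, Rgs14 and Rgs4 were at −0.14, 0.17 and −0.16, and Adcy1, Adcy8 and Adcy3 at −0.19, −0.14 and −0.05. Kcnj6, Kcnj3 and Kcnj9 were at −0.10, −0.04 and 0.03, Cacna1a, Cacna1e and Cacna1b at 0.07, −0.04 and 0.03, and Clptm1 and Kctd12b at 0.03 and 0.07.

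**Figure D4:**
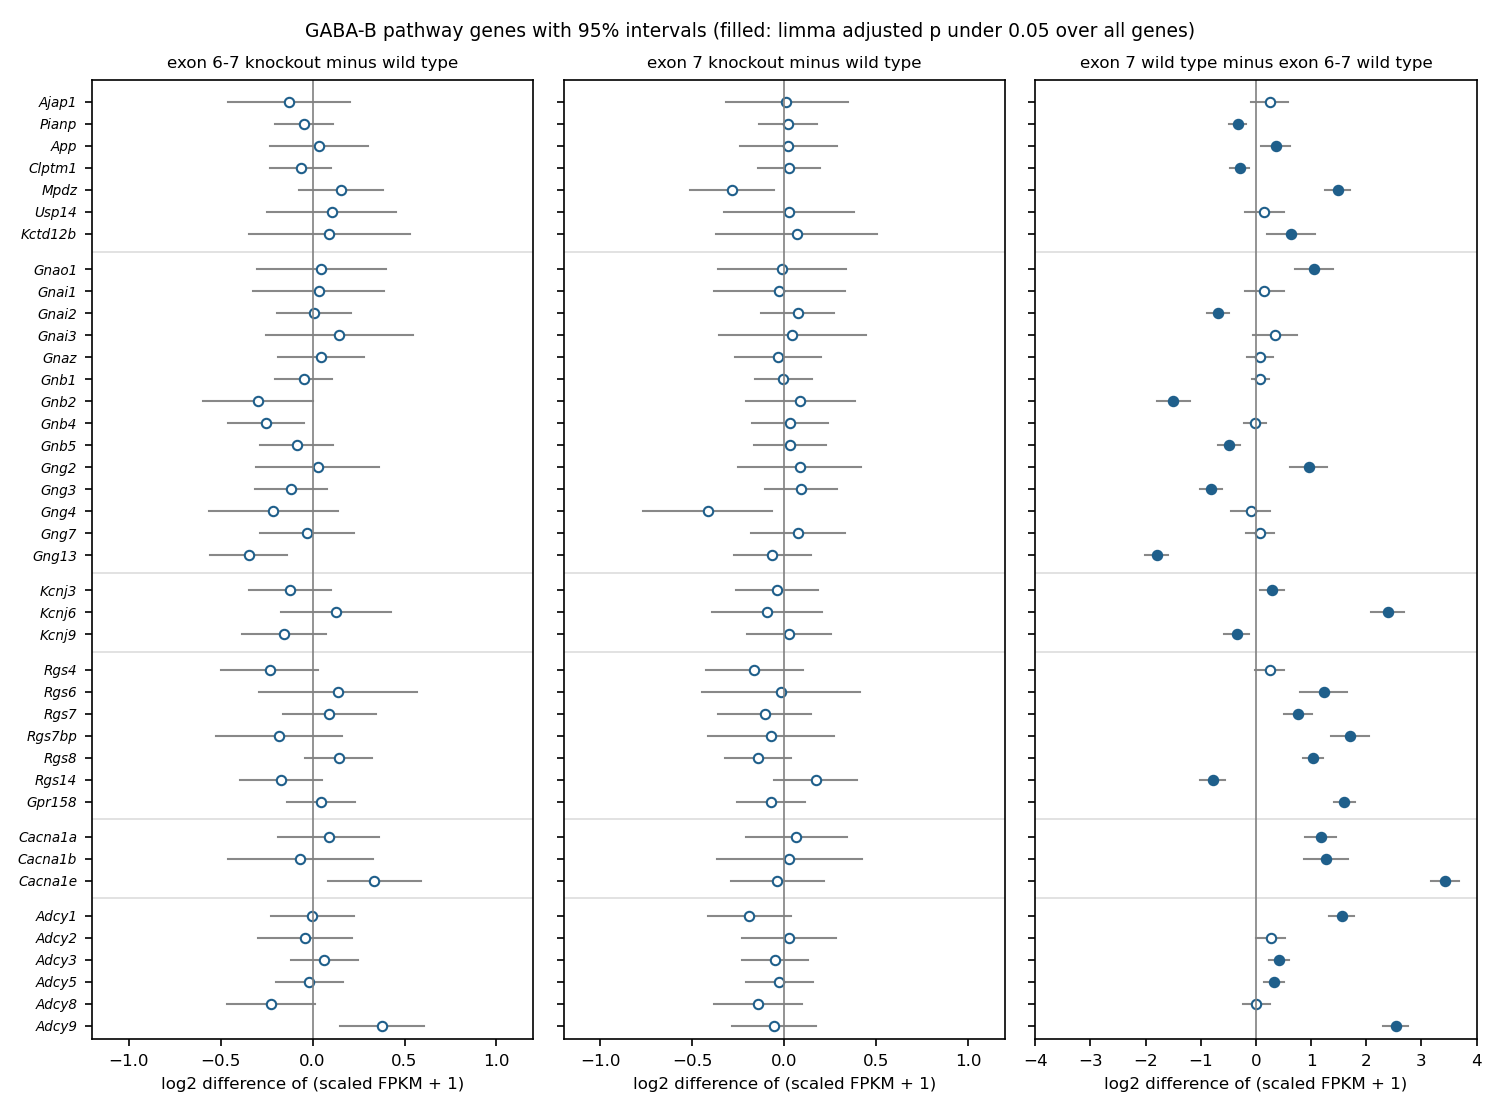
Log2 differences of (scaled FPKM + 1) with 95% intervals for the 40 tested pathway genes, grouped by list from receptor partners at the top to adenylyl cyclases at the bottom. Filled circles passed limma adjusted p under 0.05 over all genes; none is filled in the 2 knockout panels, and 28 are filled between the wild types (19 higher, 9 lower).

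Genes with a profile like that of each member over the 12 libraries were found by the root mean square difference of log2 levels, each centred on its own mean. Nearest to Gabbr2 were Aff3 (0.0681), Vash1 (0.0778) and Mef2d (0.0794), where Gabbr2 itself varied by 0.678 around its mean. Nearest to Kctd16 (1.21) were Trpc5 (0.0926), Pcdh7 (0.105) and Cntnap5c (0.109), each higher in the exon 7 wild type by 2.55 to 2.58. Nearest to Kctd12 (0.554) were Tmem33 (0.0904), Mtpn (0.0950) and Chic1 (0.105). Nearest to Kctd8 (0.203) were Ttl (0.0762), Tollip (0.0810) and Trim32 (0.0824), and nearest to Gabbr1 (0.0555) were Dync1li1 (0.0394), Cebpz (0.0478) and Slc25a12 (0.0529). No member was among the nearest 3 genes of another. With only 3 genes named per member, this does not show whether the members vary together.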

How the data were processed

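Per the labels' protocols, TRIZOL was used to extract hippocampal RNA, and TruSeq libraries were made from its poly(A) fraction. Cufflinks, GSNAP, CASAVA and mm10 are named, with no roles, in the submitters' processing notes. The authors deposited 1 table of FPKM per mouse, with Ensembl release 74 identifiers and only genes above 0, per the file headers. The sources used here do not give settings for counting, strand or multiple mapping.

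Unlisted genes were set to 0. Libraries were scaled by median ratios over 12511 genes with at least 1 FPKM in all 12. The test covered 14218 genes whose mean reached 1 FPKM, without 110 small RNA genes, on log2(scaled FPKM + 1), which understates changes of low genes. Limma 3.58.1 (limma-trend, R 4.3.3) fitted 4 group means (8 residual degrees of freedom), two-sided, with Benjamini-Hochberg adjustment over all genes and a threshold of 0.05. The code was tested on simulated data. Symbols, positions and lengths came from GENCODE M21 (mm10), with symbols for 24077 of 24590 identifiers. At most 0.00546% of values were equal between 2 libraries. Named were the 5 members, up to 3 genes with the smallest p per pathway list and line, and the 3 most similar profiles per member without clone names; genes named between the wild types and Kctd12b beside Kctd12 were chosen after their values were seen. The members and lists were chosen with earlier results of these data known. The alternatives are in the closing section. Figures were drawn with Python 3.11.15 and matplotlib 3.10.9.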

Additional observations from a re-analysis of the deposited data

Results flagged for a closer look

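Rgs8, which encodes a regulator that speeds G protein deactivation, was the 1 gene among the members and the tested genes of the pathway and marker lists whose genotypes did not overlap in either line and lay in opposite directions. Mice WT778, WT809 and WT865 had 11.1, 11.5 and 12.1 scaled FPKM, against 13.8, 12.4 and 12.4 in KO776, KO777 and KO864, each knockout above every wild type. Mice WT628, WT993 and WT999 of the exon 7 line had 26.9, 23.8 and 24.1, against 22.5, 21.9 and 22.9 in KO969, KO990 and KO994, each knockout below every wild type. This order was found in 26 of 14218 genes (0.183%) and its reverse in 36 (0.253%). The effects were 0.14 and −0.14 on the log2 scale, and their difference of 0.285 (SE 0.117, limma unadjusted p = 0.0314) did not pass over all genes (adjusted p = 1). Of the 40 tested pathway genes 5 had an unadjusted p under 0.05 for this difference, against 3.88% of all genes, among them Mpdz (0.438) and Adcy9 (0.433) with larger differences than Rgs8, and none passed.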

How the results depend on the processing

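Alternatives were quantile normalization, TPM, unscaled values (FPKM as deposited), a minimum of 5 FPKM or none, pseudocounts of 0.1 and 5 FPKM, separate fits per line, robust empirical Bayes, array quality weights, the library set as a term, the libraries outside set A alone, removal of length and GC trends (lowess), and each library left out in turn. No paired analysis was run, because the sample labels used here do not name the litter of each mouse. Counts of members called stayed at 0 in the 4 knockout comparisons under every alternative run. Between the wild types they were 3 to 5, with 3 at the minimum of 5 FPKM, which leaves Kctd8 out. Kctd16 met that minimum, set on the mean of all libraries, only through the exon 7 line (9.55 against 1.13 FPKM as deposited). Its call between the wild types under that minimum therefore carries no weight. Of 605 log2 values of members under alternatives 25 turned in sign. In the exon 6-7 line Gabbr1 turned to 0.07 (quantile), 0.027 (TPM) and 0.009 (outside set A), and ran from −0.083 to 0.019 with 1 library left out. In the exon 7 line Kctd8 turned to 0.003 (outside set A), and with 1 library left out Gabbr2 ran from −0.132 to 0.016 and Kctd12 from −0.21 to 0.36. For the difference of the effects Gabbr1 turned to −0.029 and Kctd12 to −0.007 with length and GC trends removed, and with 1 library left out they ran from −0.032 to 0.071 and from −0.17 to 0.40. For the mean effect Gabbr1 turned to 0.012 (TPM) and Gabbr2 to −0.022 (outside set A), and with 1 library left out Gabbr2 ran from −0.009 to 0.098 and Kctd12 from −0.007 to 0.28. Between the wild types Gabbr1 turned to −0.11 (FPKM as deposited) and −0.39 (length and GC), and ran from −0.005 to 0.098 with 1 library left out. The Kctd12 set difference, with alternatives chosen after seeing the data, was 0.69 in the exon 7 and 0.29 in the exon 6-7 line with those trends removed. Without WT778 it was 0.25 and without KO776 0.43 in the exon 6-7 line. The causes were not tested. Depth cannot be read from these values.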
